A study of Homo sapiens with 2 samples.

Results

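The genes described here are 53 genes that build and drive the mitotic spindle, condense and hold together the chromosomes, and divide the cell. They were taken by name from the array's annotation. Each was read from the probe set that measures that gene alone, and from the brightest one where there were several. All 53 had such a probe set among the 18417 genes measured that way, and all 53 counted as detected, as did 11352 genes in all. Detection means that at least 1 of both arrays gave a value of 4.66 or more, which is the midpoint of all values in the table.

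Huh-7 is an established human hepatocellular carcinoma cell line. One array held total RNA of cells transfected with NC, which the labels call the control, and the other held RNA of cells transfected with DEPDC1 siRNA. Both cultures were collected after 72 h. Each group had 1 array, so no value below has a replicate check, no test could be run and no p-value is given. The siRNA's sequence and the make of NC are not given in the sources used here.

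Mitosis depends on kinases of the polo and aurora families, which time the entry into division and the assembly of the spindle. Kinesins are motors that slide, cross-link or shorten spindle microtubules. Condensin compacts chromosomes, cohesin holds sister chromatids together until separase cuts it, and a contractile ring then splits the cell. Most of these genes are transcribed late in the cell cycle. Many are known targets of the DREAM complex and of B-MYB and FOXM1, which act through a promoter element called the cell cycle genes homology region (CHR), often with CCAAT boxes bound by NF-Y. In a mixed culture, fewer cells in division and less transcript per dividing cell cannot be told apart from a level measured over all cells.

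Because these genes are known for a shared promoter design, the stretches just upstream of the start of several members are shown first. RefSeq promoter windows of GRCh38.p14, 250 bases before to 50 after each gene's start, were matched by symbol for 47 of the 53 members. AURKA, BIRC5, RACGAP1, RAD21, TPX2 and UBE2C were not matched. The 9 genes printed were taken from the members with the lowest or the highest differences, or from members with a textbook arrangement of both elements. They do not follow the ranks strictly: SMC4, lower than NCAPG, and TACC3, higher than HMMR, are not printed. The printed set therefore does not show how common the elements are. Each run is the 150 bases before the start, 5′ to 3′ on the gene's own strand. Capitals mark the CHR letters TTTGAA or the CCAAT box, each on either strand. STAG1 lies on the minus strand and the other 8 on the plus strand.
NUSAP1, chr15:41332731-41332880: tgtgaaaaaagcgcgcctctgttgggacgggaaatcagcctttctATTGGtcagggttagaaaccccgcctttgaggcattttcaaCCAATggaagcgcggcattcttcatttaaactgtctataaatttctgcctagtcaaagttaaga
KIF11, chr10:92592980-92593129: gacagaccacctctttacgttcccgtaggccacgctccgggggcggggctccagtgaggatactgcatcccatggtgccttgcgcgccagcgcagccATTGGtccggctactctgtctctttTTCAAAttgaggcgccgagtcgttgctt
CKAP2, chr13:52455838-52455987: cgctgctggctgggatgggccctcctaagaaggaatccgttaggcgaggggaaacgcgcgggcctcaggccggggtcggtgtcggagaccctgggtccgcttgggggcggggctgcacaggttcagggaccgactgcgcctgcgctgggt
NCAPG, chr4:17810829-17810978: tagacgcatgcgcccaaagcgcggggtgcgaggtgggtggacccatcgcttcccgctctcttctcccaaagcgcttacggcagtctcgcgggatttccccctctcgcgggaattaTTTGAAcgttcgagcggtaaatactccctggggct
KIF23, chr15:69414199-69414348: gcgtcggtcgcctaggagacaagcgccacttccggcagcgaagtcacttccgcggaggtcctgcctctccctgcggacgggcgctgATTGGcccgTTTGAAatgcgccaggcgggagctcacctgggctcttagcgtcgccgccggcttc
PLK1, chr16:23678739-23678888: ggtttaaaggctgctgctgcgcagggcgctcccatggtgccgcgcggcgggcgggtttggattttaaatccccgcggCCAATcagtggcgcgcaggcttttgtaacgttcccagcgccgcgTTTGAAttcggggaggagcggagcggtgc
KIF4A, chrX:70289954-70290103: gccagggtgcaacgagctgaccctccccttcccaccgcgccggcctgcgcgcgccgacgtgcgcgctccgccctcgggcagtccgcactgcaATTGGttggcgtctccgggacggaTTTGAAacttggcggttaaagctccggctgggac
HMMR, chr5:163460482-163460631: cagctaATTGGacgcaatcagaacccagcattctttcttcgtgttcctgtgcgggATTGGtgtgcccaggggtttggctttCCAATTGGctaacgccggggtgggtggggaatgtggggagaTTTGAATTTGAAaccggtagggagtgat
STAG1, chr3:136752379-136752528: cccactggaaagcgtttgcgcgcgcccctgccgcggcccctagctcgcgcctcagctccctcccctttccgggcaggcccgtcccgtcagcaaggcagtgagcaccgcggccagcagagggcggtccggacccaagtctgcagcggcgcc

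PLK1 shows the arrangement plainly: its CCAAT box begins at -73 and its CHR letters at -29, counted from the start at 1. KIF11 has both on the other strand, at -53 and -28. In KIF23 they stand close together, at -64 and -55. HMMR has 5 CCAAT matches in its window, a pair of which overlap, and 2 CHR matches side by side at -28 and -22. NUSAP1 has CCAAT matches at -249, -105 and -64, the first of them outside the stretch printed. Its CHR letters lie after the start, at 14, and are not printed either. CKAP2 holds neither set of letters in its window.

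Over the whole windows, the CHR letters were present in 34 of the 59 windows of members, or 57.6%, against 15.2% of all 35116 windows. Counted by gene, 33 of 47 members had them in at least 1 window, against 13.5% of 9152 detected genes. CCAAT was present in 66.1% of the members' windows and in 34.6% of all windows. Both elements lay together in the same window for 25 of 47 members and for 5.51% of the detected genes. The E2F letters GGCGGGAA, also searched on both strands, were found in 3 of 47 members, CEP55, NCAPD3 and STAG1, which is 6.38% beside 6.62% of detected genes. By window, the shares were 5.08% of the members' windows and 3.16% of all windows. A match is a run of letters and not a measured binding site.

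Of the 53 members, 41 were lower with the siRNA and 12 were higher. That is 77.4% lower, against 48.1% of all detected genes. A higher value was found in 22.6% of members and in 49.9% of detected genes, the remaining detected genes having identical values on both arrays. Among the 5757 genes in the range from 6.49 upwards, the 75th percentile of the table, where 48 of the members lay, 46.7% were lower and 52.4% higher. The median difference of the members, siRNA minus NC on the log2 scale, was -0.21, which is 1.16-fold lower, beside a median of 0.00 over all detected genes. The differences ran from -1.20 to 0.50.

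The differences were small for most members. Only NUSAP1 was at least 2-fold lower, which is 1.89% of members beside 0.863% of detected genes. None was at least 2-fold higher, beside 1.94% of detected genes. At 1.5-fold, 3 members were lower (5.66%, against 3.74% of detected genes) and none was higher (against 6.03%). At a difference of 0.322, 13 members were lower (24.5%, against 12% of detected genes) and 2 were higher, TACC3 and STAG1 (against 16.7%). HMMR on the higher side and NEK2 and PLK4 on the lower side fell just short of it. The share past 2-fold thus rests on 1 gene, while the share lower at all rests on many small differences. As a gauge of measurement noise, the differences given by probe sets of the same gene lay a median of 0.087 apart. In 90% of 444 genes they lay up to 0.41 apart. All probe sets read the same arrays, so this gauge leaves out variation between cultures, and shared probes can shrink it. Past 0.41 lay 5 lower members, NUSAP1, KIF11, CKAP2, SMC4 and NCAPG, and 1 higher member, STAG1. Lower differences of that size were found in 7.82% of detected genes, and higher ones in 11.7%.

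**Figure D1:**
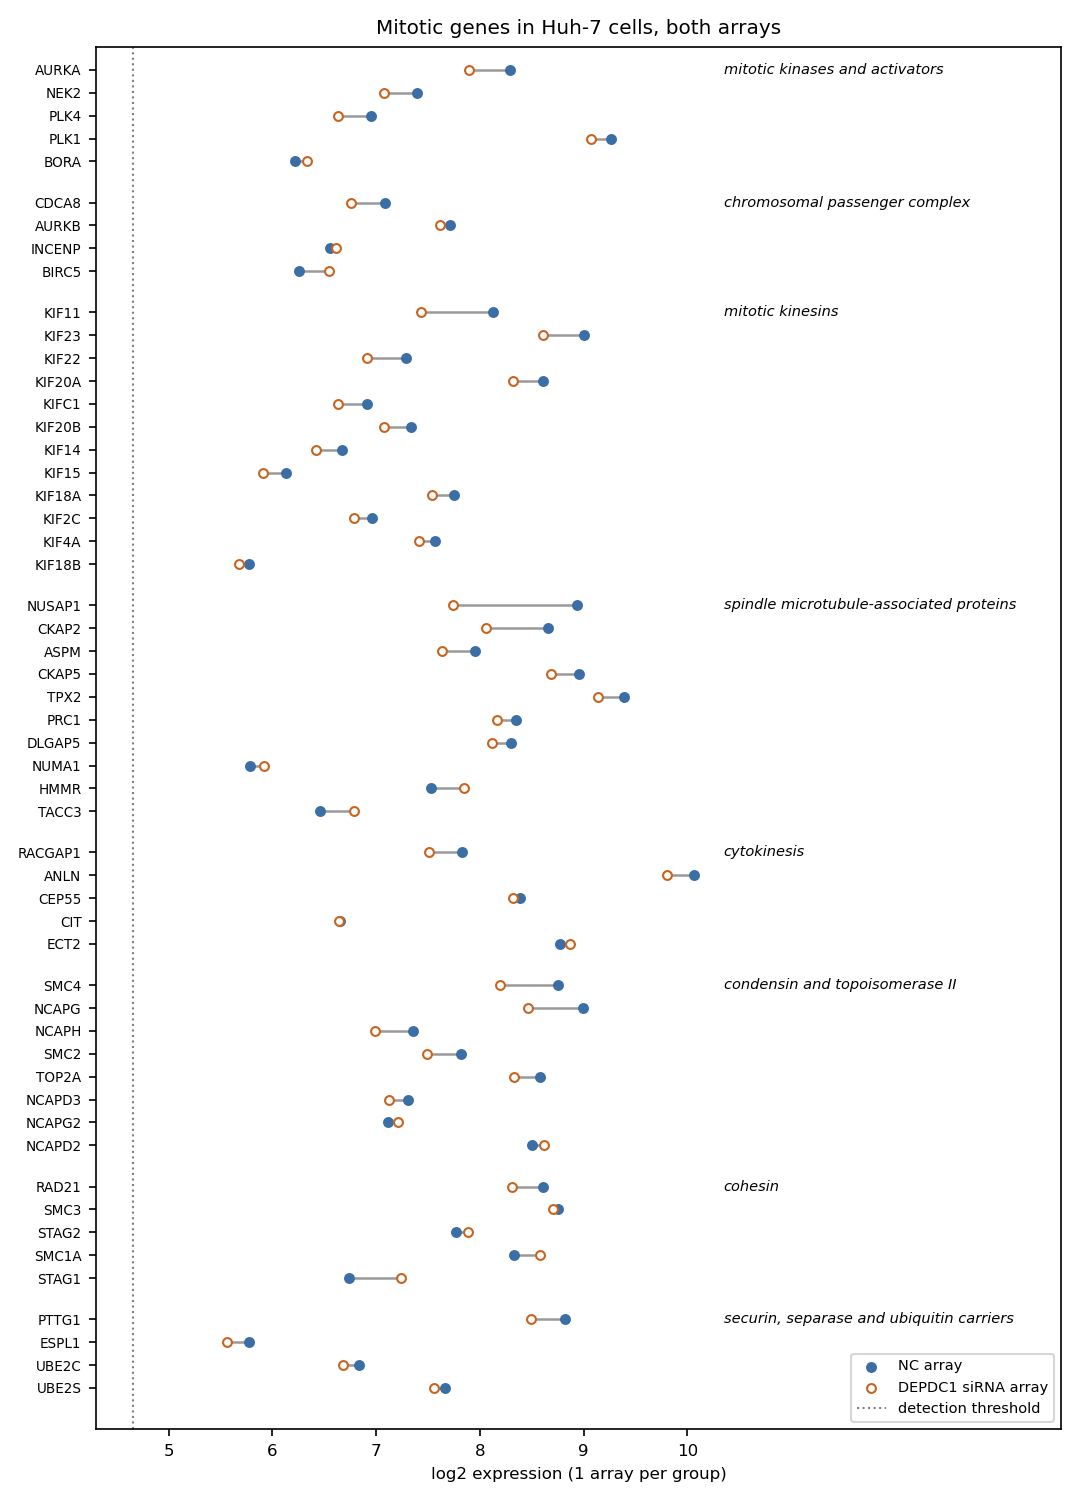
Log2 expression (x axis) of the 53 members with NC (filled) and with DEPDC1 siRNA (open), 1 array per group, ordered by role; the dotted line is the detection threshold of 4.66. In 41 members the open point lies left of the filled one, with the longest line at NUSAP1 (8.93 against 7.74).

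The targeted transcript was read first as a check of the labels. DEPDC1 stood at 7.82 with NC and at 5.15 with the siRNA, 6.37-fold lower. Hepatocyte markers were present, as the name of the line implies, with 12 of 12 measured ones detected. Their summed linear level was 15180 with NC and 11768 with the siRNA. Of the 12, 8 were lower, AFP the most at -1.97, and 4 were higher, TTR the most at 1.41. Markers of fibroblasts and stellate cells were also read, and 7 of 12 were detected. Their summed linear level over the 12 was 1681 with NC and 3275 with the siRNA, while ACTA2, DCN, THY1, TAGLN and PDGFRB lay under the threshold in both. LUM differed by 2.31, FBN1 by 2.19, COL1A2 by 1.07 and VIM by 0.57. The other 3 detected ones differed by less than 0.322 in size, so the markers of this list did not move together. Of 7 endothelial markers, 1 was detected, CLEC4G, which differed by -0.12. Of 6 leukocyte markers measured, 2 were detected and both were higher with the siRNA, LYZ at 4.85 against 6.05 and CD14 at 6.83 against 7.10. PTPRC, the pan-leukocyte marker, and the other 3 lay under the threshold in both arrays. The summed linear level of the 6 was 196 with NC and 255 with the siRNA. The part of these differences in the values of the mitotic genes was not tested.

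Among the mitotic kinases, 4 of 5 genes were lower, beside 48.1% of all detected genes, with a median of -0.32. AURKA, the aurora kinase of centrosomes and spindle poles, read 8.29 with NC and 7.89 with the siRNA. It was thus 1.32-fold lower. NEK2, a kinase that helps to part the centrosomes, differed by -0.32, as did PLK4, the kinase that starts centriole duplication. PLK1, the central polo-like kinase of mitosis, differed by -0.19. BORA, the cofactor through which aurora A activates PLK1, was the 1 higher gene of this group, with 6.21 against 6.33, a difference of 0.12. TPX2, which binds aurora A and brings it to spindle microtubules, read 9.39 with NC and 9.14 with the siRNA, a difference of -0.25. The kinase AURKA and its spindle partner TPX2 thus lay on the lower side and its cofactor BORA on the higher side. Each of these differences was under the 0.41 of the probe set gauge in size.

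The chromosomal passenger complex did not move one way. It joins the kinase aurora B (AURKB) to the scaffold INCENP and the targeting subunits survivin (BIRC5) and borealin (CDCA8), and corrects faulty attachments at centromeres. CDCA8 was the lowest, at 7.09 with NC and 6.75 with the siRNA, 1.26-fold lower. AURKB differed by -0.09 and INCENP by 0.06. BIRC5 was the highest, with 6.26 against 6.54, a difference of 0.28. A second probe set of BIRC5 lay under the detection threshold, at 3.05 in both arrays, and gives no second reading of that difference. The median of the 4 genes was -0.02.

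Every one of the 12 mitotic kinesins was lower with the siRNA, beside 48.1% of all detected genes. Their differences ran from -0.70 to -0.10, with a median of -0.25. At a difference of 0.322, 3 of the 12 were lower, beside 12% of detected genes. KIF11 encodes Eg5, the motor that pushes the spindle poles apart. It read 8.13 with NC and 7.43 with the siRNA, 1.62-fold lower, and 2.44% of detected genes were as low or lower. Without KIF11 the median of the other 11 was -0.25 as well. KIF23, the motor subunit of centralspindlin at the spindle midzone, read 8.61 with the siRNA, 1.31-fold lower than with NC. KIF22, a chromokinesin that pushes chromosome arms away from the poles, had 7.29 against 6.91, 1.30-fold lower.

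The other kinesins lay closer together. KIF20A, which brings the passenger complex to the midzone, differed by -0.28, as did KIFC1, a minus-end motor that clusters spindle poles. KIF20B, a midbody motor, differed by -0.26, and KIF14, which acts with citron kinase in cytokinesis, by -0.25. KIF15, a motor that can stand in for KIF11 at the spindle, differed by -0.22 and KIF18A, which damps chromosome movements, by -0.21. KIF2C, a depolymerase at centromeres, differed by -0.17 and the chromokinesin KIF4A by -0.16. KIF18B, which shortens astral microtubules, had the smallest difference, with 5.78 against 5.68, and its other probe set gave -0.22. Apart from KIF11, no kinesin's difference passed the 0.41 of the probe set gauge.

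Some kinesin probe sets repeat one another. KIF22 was measured by a pair of probe sets that gave -0.39 and -0.38, and both probe sets of KIFC1 gave -0.28. Probe sets of one gene may share probes, so these pairs are not independent readings. A probe set that the annotation gives to both KIF4A and its copy KIF4B was left out, and its value differed by -0.09.

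Kinesins that carry cargo or serve cilia, with their light chains, did not share that direction. From a list of 31 such genes, 23 were detected. Of these, 12 were lower and 11 higher, beside 48.1% and 49.9% of all detected genes. The 23 genes had a median of -0.01 and a mean of 0.03, so these differ in sign. KIF5B, the main conventional kinesin heavy chain, was the lowest at -0.42, from 9.60 to 9.19. KIF1C, a transport motor, was the highest at 0.80, with 7.02 against 7.82. The light chain gene KLC1 differed by 0.50 and KIF3C by 0.36. The difference between both sets of kinesins was not tested, as 1 array per group gives no spread.

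Of the 10 spindle-associated proteins without a motor, 7 were lower, beside 48.1% of all detected genes, and 3 higher. Their median was -0.22. NUSAP1, which bundles microtubules around chromosomes, read 8.93 with NC and 7.74 with the siRNA. It was 2.29-fold lower, and 0.502% of detected genes were as low or lower. CKAP2, a spindle protein that promotes microtubule growth, had 8.66 against 8.05, 1.52-fold lower. ASPM, a spindle pole protein, had 7.96 against 7.63, a difference of -0.32. NUSAP1 and CKAP2 stood apart from the other spindle proteins, whose differences were all under 0.41 in size.

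The remaining spindle proteins split. CKAP5, a microtubule polymerase also called ch-TOG, differed by -0.27, PRC1, which bundles midzone microtubules, by -0.19, and DLGAP5 (HURP), which stabilises kinetochore fibres, by -0.18. On the higher side, TACC3, which works with CKAP5 and clathrin on those fibres, had 6.46 against 6.78, a difference of 0.32. HMMR, a spindle and hyaluronan-binding protein, had 7.53 against 7.85, also 0.32. NUMA1, which tethers spindle poles to dynein, differed by 0.14. TACC3 and its partner CKAP5 therefore had opposite signs, each by less than 0.41.

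**Figure D2:**
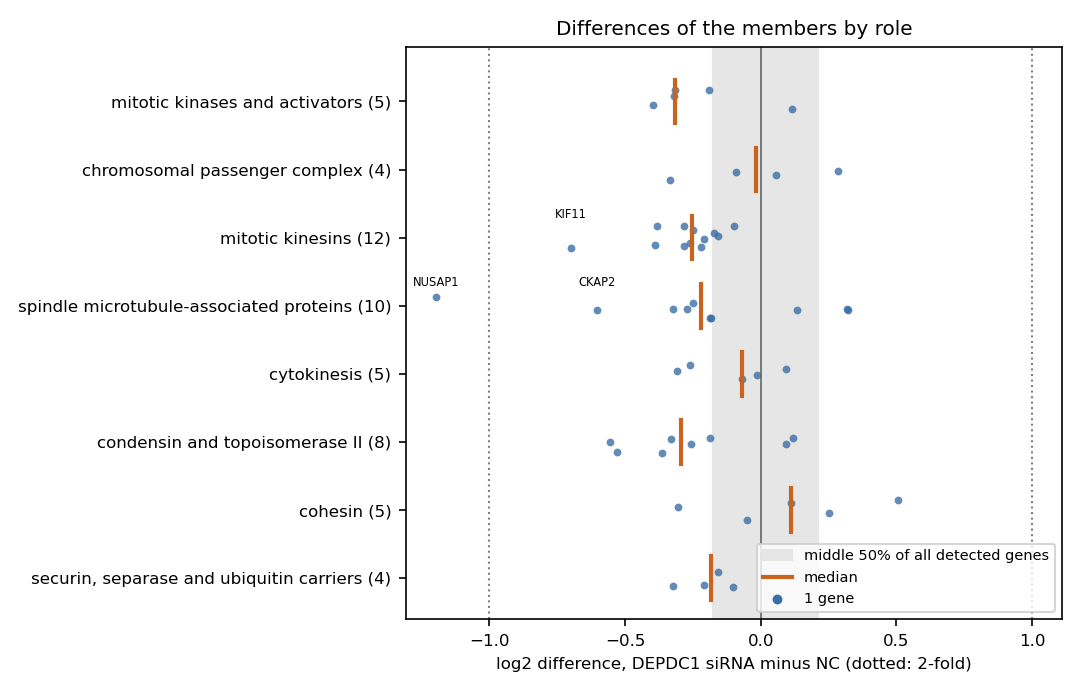
Log2 difference, siRNA minus NC (x axis), of each member by role, with the number of genes in brackets; bars are medians, the grey band holds the middle 50% of detected genes (-0.18 to 0.21) and dotted lines mark 2-fold. All 12 kinesins lie left of 0, while cohesin has its median right of 0, at 0.11.

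Cytokinesis genes had a median of -0.07, with 4 of 5 lower, beside 48.1% of all detected genes. RACGAP1, the partner of KIF23 in centralspindlin, read 7.82 with NC and 7.51 with the siRNA, a difference of -0.31. Both subunits of centralspindlin were thus lower, by -0.39 and -0.31. ANLN (anillin), the scaffold of the contractile ring, had 10.07 against 9.81, a difference of -0.26. CEP55, which recruits the abscission machinery to the midbody, differed by -0.07 and CIT, citron kinase, by -0.01. ECT2, the exchange factor that centralspindlin engages to activate RhoA, had 8.78 against 8.87, a difference of 0.09.

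The genes of condensin and topoisomerase II were lower in 6 of 8 cases, beside 48.1% of all detected genes, with a median of -0.29. SMC4 and SMC2 form the ATPase core shared by condensin I and II. SMC4 read 8.75 with NC and 8.20 with the siRNA, 1.47-fold lower. SMC2 had 7.82 against 7.49, 1.26-fold lower. Both core subunits were lower, and SMC4 lay among the 5 members past the probe set gauge.

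The subunits that set the condensin complexes apart were uneven. In condensin I, which reaches chromosomes after the nuclear envelope breaks down, NCAPG had 8.99 against 8.46, 1.45-fold lower. NCAPH, its kleisin subunit, had 7.36 against 6.99, 1.29-fold lower. NCAPD2, its remaining subunit, had 8.50 against 8.62 and was higher by 0.12. In condensin II, NCAPD3 differed by -0.19 and NCAPG2 by 0.09. NCAPH2, the kleisin of condensin II, which is no member, differed by 0.00. TOP2A, the topoisomerase that untangles sister chromatids, had 8.58 against 8.33, a difference of -0.26.

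Cohesin genes were mixed, with 3 of 5 higher, beside 49.9% of all detected genes, and a median of 0.11. STAG1 had the highest difference of all 53 members, at 6.74 with NC and 7.24 with the siRNA, 1.42-fold higher. Of the detected genes, 8.27% were as high or higher. STAG2, which takes the same place as STAG1 in other cohesin complexes, had 7.77 against 7.88, a difference of 0.11. SMC1A, a core ATPase, had 8.33 against 8.58, a difference of 0.25, and SMC3, its partner, differed by -0.05. RAD21, the kleisin that separase cuts, was the lowest, with 8.61 against 8.30, a difference of -0.30. Cohesin also works outside mitosis, where it forms chromatin loops. Whether that work bears on these values was not tested. Over the 48 members outside cohesin, 39 were lower and 9 higher, beside 48.1% lower of all detected genes. Their median was -0.23. This set leaves out the only role with a median above 0, so it leans lower through that choice.

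The genes of anaphase and mitotic exit were all lower, beside 48.1% of all detected genes, with a median of -0.18 over 4. PTTG1 (securin), the inhibitor of separase, had 8.82 against 8.50, a difference of -0.32. It has near-identical copies in the genome whose transcripts a probe set can also read, so its value is uncertain. ESPL1, separase itself, differed by -0.21. UBE2C and UBE2S, the ubiquitin carriers that start and lengthen chains for the anaphase-promoting complex, differed by -0.16 and -0.10. UBE2S had 7.66 against 7.56, and its other probe set gave -0.09.

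Members with and without the promoter elements printed above overlapped in their differences. Members with the CHR letters had a median of -0.21, with 27 of 33 lower. Those without had a median of -0.14, with 9 of 14 lower. Of all detected genes, 48.1% were lower. With CCAAT the median was -0.20 over 36 members, and without it -0.22 over 11. NUSAP1 and KIF11, both lower, and HMMR, which was higher, all carry both elements. CKAP2, at -0.60, carries neither, and neither does TACC3, at 0.32. These genes are picked examples, and whether the elements bear on the direction of a difference was not tested. Across all detected genes with a window, the median was 0.00 with the CHR letters and 0.01 without. The members' CHR matches began at a median of -28 from the start and the CCAAT matches at -75.

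**Figure D3:**
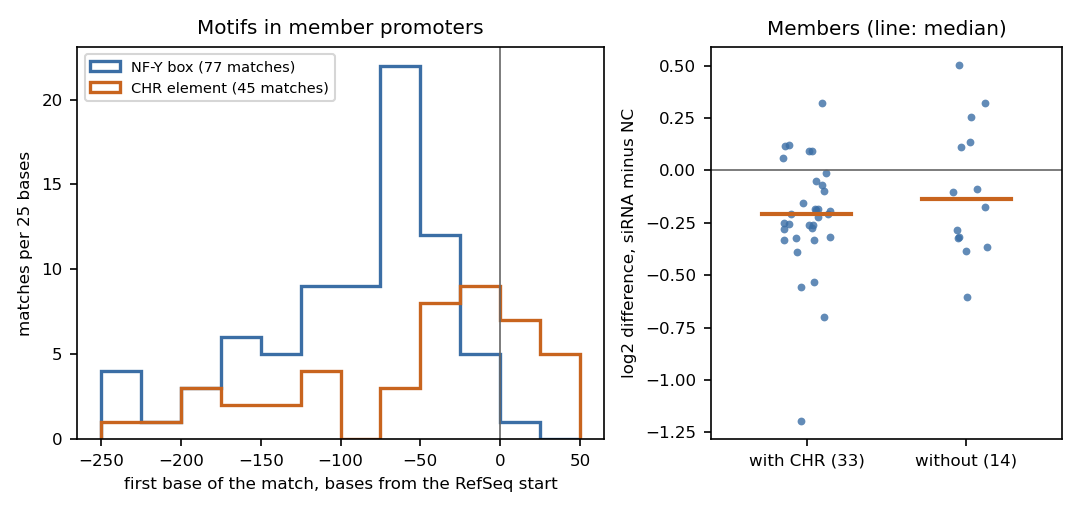
Left, where the 45 CHR and 77 NF-Y box (CCAAT) matches begin in the 59 windows of members, in bases from the RefSeq start, per 25 bases; some genes have more than 1 window, and windows can overlap. Right, log2 differences of the 33 members with and 14 without CHR letters, with lines at the medians of -0.21 and -0.14; both sets span 0.

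Other genes of the same machinery were read from lists by function. Beside the counts of each list, 48.1% of all detected genes were lower and 49.9% higher. Of 24 other mitotic kinases, cyclins and their regulators, all detected, 17 were lower and 7 higher, with a median of -0.22. PBK, a mitotic protein kinase, differed by -0.77, CCNA2, cyclin A2, by -0.61 and ARPP19, a phosphatase inhibitor of mitotic entry, by -0.58. PLK2 differed by 1.87, from 6.32 to 8.19. It is a polo-like kinase of interphase and a known p53 target, and it was the 1 gene of the list at least 2-fold higher. PLK2 thus lay far from PLK1, at -0.19, and PLK4, at -0.32.

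Among 16 detected genes of other cohesin, condensin and loading factors, 14 were lower, none by 1.5-fold, with a median of -0.20. ESCO2, which acetylates SMC3 in S phase, differed by -0.46, SMC6 by -0.37, ESCO1 by -0.36 and PDS5A, a regulator bound to cohesin, by -0.34. Most genes of that list were lower, whereas the cohesin subunits among the members were mixed. Other spindle and microtubule genes were 20 lower and 13 higher of 34 detected, with a median of -0.04. HAUS6, a subunit of the augmin complex that branches microtubules, differed by -0.74. SPAG5 (astrin) differed by -0.58, CKAP2L by -0.57 and MAPRE1, the plus-end protein EB1, by 0.52.

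Of 19 other cytokinesis genes detected, 12 were higher and 7 lower, with a median of 0.21. SHCBP1, a midbody protein that binds centralspindlin, was the lowest, with 7.89 against 6.89, 2.01-fold lower. CDCA2, which recruits a phosphatase to chromosomes at mitotic exit, differed by -0.56. CHMP2A, an ESCRT protein of abscission and of many other membrane cuts, differed by 0.97, from 8.36 to 9.33. MYH9, a non-muscle myosin, differed by 0.64.

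Subunits and activators of the anaphase-promoting complex had a median of 0.01 over 16 detected genes, with 7 lower and 8 higher. ANAPC15 differed by 0.76, ANAPC13 by 0.56, CDC26 by 0.46 and ANAPC4 by -0.44. Of the regulators of mitotic gene transcription, 7 of 14 were lower and 6 higher, with a median of -0.07. NFYC and NFYA, both subunits of NF-Y, differed by -0.42 and 0.40, RB1 by -0.37 and LIN9, a subunit of the DREAM complex, by -0.36. FOXM1 and MYBL2, the factors best known for switching on these members, were named after their values were seen. FOXM1 differed by -0.14 and MYBL2, which encodes B-MYB, by 0.33.

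Tubulins, the substrate of the motors, were higher in 9 of 13 detected genes, with a median of 0.10. TUBA1A differed by 0.88, TUBA4A by 0.56, TUBB2B by 0.50 and TUBD1 by 0.28. Alpha and beta tubulin genes are close copies of one another, so probe sets can share signal. Proliferation markers were lower in 8 of 10 cases, with a median of -0.33, the lowest after MKI67 (-1.06) being CCNE2 at -0.82, CCND1 at -0.54 and RRM2 at -0.48. That list of 10 also holds CDKN1A, an inhibitor of cyclin-dependent kinases and thus a marker of arrest, which differed by 0.02. The members' median of -0.21 lay between the medians of these markers and of all detected genes.

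**Figure D4:**
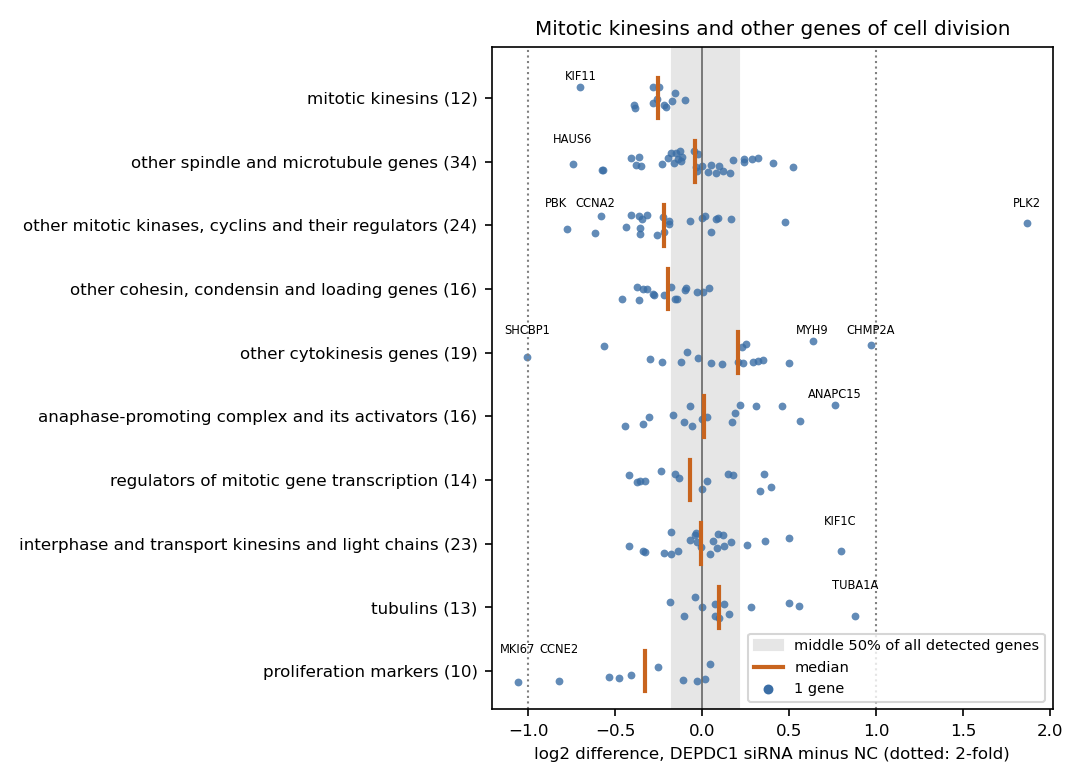
Log2 difference, siRNA minus NC (x axis), of the 12 mitotic kinesins and of detected genes of 9 other lists, numbers in brackets; bars are medians, the grey band holds the middle 50% of detected genes and genes past 1.5-fold are named. Mitotic kinesins (median -0.25) lie on the lower side, transport kinesins and light chains (median -0.01) on both.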

How the data were processed

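Total RNA of 2 Huh-7 cultures, 1 per group, was labelled as biotinylated cRNA, per the labels' protocols. The submitters' processing notes name Affymetrix Expression Console and Transcriptome Analysis Console 3.0. Background correction, normalization and filters are not given in the sources used here. The deposited table gives 33297 probe sets 1 value on each array, in a unit that the labels leave out. As the deposited values run from 1.39 to 12.7, they were read as log2 expression. Once sorted, both columns lie within 0.0997 of each other throughout, and the authors' values were not scaled again.

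Gene names came from the platform annotation in GEO, with 1 gene for 19460 and several for 1754, which were left out. Symbols were updated by Entrez identifier against RefSeq GRCh38.p14, matching 19429. Over detected genes the difference, siRNA minus NC, had an SD of 0.397, and 1.98% of them had identical values in both arrays (within 1e-09). The number of arrays limits the precision, and differences of dim genes may be understated. Members and gene lists were chosen with earlier results of these data known, so counts and medians describe these arrays only.

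All members may be named. Both values are given for members with a difference of at least 0.322 in size and for the extremes of each role, and up to 4 genes of each other list with the largest differences are named. Python 3.11.15 with numpy 2.4.6 and pandas 2.3.3 was used. The steps were checked on simulated data in which chosen genes were lowered by more than 2-fold. That check does not cover differences as small as those of most members. Alternatives covered the probe set, the scaling and the filter.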

Additional observations from a re-analysis of the deposited data

How the results depend on the processing

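Under 7 alternatives (the mean of a gene's probe sets, 3 other scalings, 2 other filters, and low values raised to the threshold), the counts of members lower, higher and past 2-fold stayed within 1.5 times those reported. The median of the members moved by less than the median gap between probe sets of a gene. The number at least 1.5-fold lower was 5, not 3, with each array centred on its median over detected genes. That centring moved all genes by -0.06 and turned the sign of INCENP. With it, 42 members were lower, and the share of all detected genes that were lower rose from 48.1% to 57.2%. No other member changed sign under these alternatives. With a gene's probe sets averaged, BIRC5 differed by 0.14. At the stricter filter 48 members remained, since the other 5 lay under it. No paired analysis was possible because each group has 1 array. With 1 array per group, differences between cultures that have nothing to do with the siRNA cannot be told apart from its effect.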
